A study of Mus musculus with 18 samples.

Results

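The genes described here are 9 antagonists of WNT, BMP and FGF signalling: the secreted frizzled-related proteins Sfrp1, Sfrp2, Frzb, Sfrp4 and Sfrp5, the WNT inhibitory factor Wif1, the sclerostin relative Sostdc1 and the membrane proteins Shisa2 and Shisa3. They were chosen by name, and every probe set whose platform annotation gives one of these symbols alone was taken, which gave 18 of the 45101 probe sets of the array. Expression was measured in mouse palate tissue at embryonic day 15.5 on 18 Affymetrix arrays, 6 in each of 3 groups, all labelled C57BL/6J. The mutant posterior group carried K14-Cre and the floxed receptor allele (K14-Cre;Tgfbr2 fl/fl), the control posterior group carried Tgfbr2 fl/fl without the recombinase, and the control anterior group had the same Tgfbr2 fl/fl genotype in the anterior part of the palate. K14-Cre is driven by a keratin promoter of epithelium, so Tgfbr2, a receptor for TGF-beta ligands, is lost in epithelial cells while mesenchyme and muscle keep it, and no mutant anterior palate was measured here. Mutants and controls came from separate litters per the design text, so litter and genotype cannot be told apart. The design text speaks of 5 samples a group; the labels hold 6 for each, and none was left out.

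WNT ligands bind Frizzled receptors and the co-receptors Lrp5 and Lrp6 and stabilise beta-catenin, and the pathway takes part in the outgrowth, patterning and fusion of the palatal shelves. SFRP proteins carry a cysteine-rich domain like that of the Frizzled receptors and bind WNT ligands outside the cell, and Wif1 binds WNT ligands through a different domain. Sostdc1, also called Wise or ectodin, binds both Lrp co-receptors and BMP ligands and is known for its role in tooth and palatal ruga patterning. Shisa proteins were first described in Xenopus, where Shisa holds Frizzled and FGF receptors back in the endoplasmic reticulum.

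The deposited values are RMA log2 values, so a difference of 1 is a 2-fold difference. Array medians lay between 5.77 and 5.90 in mutant posterior, 5.75 and 5.80 in control posterior and 5.74 and 5.77 in control anterior palate, and values near or below them may hold background. Where a gene had several probe sets the brightest over all arrays stood for it, and limma was fitted over 18193 genes and all 18 arrays. Calls were made where the Benjamini-Hochberg adjusted p lay under 0.05. The labels do not say whether each sample is a single embryo or pooled tissue, and the p-values cover the spread among samples as they are. Hybridisation spike-in controls averaged 11.55 on mutant arrays 1 to 3 and 10.51 on mutant arrays 4 to 6, and in control posterior palate 10.34 on arrays 1 to 3 and 10.71 on arrays 4 to 6, which part each genotype into sets that the labels do not name. Labelling spike-in controls averaged 7.23 to 8.91 over the mutant arrays, against 9.46 to 11.11 in control posterior and 9.44 to 11.40 in control anterior palate, so the mutant arrays lay below all control arrays. Whatever differed in labelling between them and genotype cannot be told apart. Mutant array 1 stood furthest apart (highest correlation with any other array 0.961 across genes, against 0.988 or more for every other array). Its mean over 10 basal and simple epithelial markers was 9.52, against 11.55 to 12.01 in control posterior palate. The 10 markers of palate mesenchyme were all measured and their mean ran from 8.55 to 9.47 in mutant posterior, from 9.09 to 9.39 in control posterior and from 8.72 to 9.64 in control anterior palate. The brightest Tgfbr2 probe set read higher in the mutants (log2 difference 0.55, SE 0.13, limma adjusted p = 0.00972 in the fit over all probe sets), and whether its probes lie in the deleted part was not examined.

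The region comparison asked where posterior palate differs from anterior palate in controls. Sostdc1 was 1.97-fold lower in posterior palate, with no overlap between the groups. Its relatives in function did not pass the same test: Sfrp4, Frzb and Sfrp1 had lower means in posterior palate and Shisa2, Sfrp5 and Shisa3 higher ones, while Sfrp2 and Wif1 differed least relative to their error. Of the 9 genes 1 was called, lower, where 2.12% of all genes were called lower and 3.82% in either direction. With the replicate number as a block 5 were called, as given below for each, in a fit that called 17.3% of all genes. Posterior palate holds the muscle of the soft palate: all 12 skeletal muscle markers were higher there, and their mean ran from 9.43 to 10.64 in posterior and from 5.35 to 7.70 in anterior palate. Of the other marker lists, palate mesenchyme had 2 genes higher and 2 lower of 10, tendon 2 higher and 1 lower of 7, leukocytes 2 higher of 7, bone 1 higher of 6 and stratified epithelium 1 lower of 12, while none was called of 10 for cartilage, 6 for endothelium, 5 for red cells and 4 for Schwann cells and glia. The part of these tissue differences in the values below was not tested. In whole tissue, fewer cells of a type and less RNA per cell cannot be told apart.

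Sostdc1 read from 9.79 to 10.10 in control posterior palate (median 9.93) and from 10.28 to 11.26 in control anterior palate (median 11.03). Every posterior array lay below every anterior array, which held for 3.67% of all genes. The means were 9.93 ± 0.11 and 10.91 ± 0.38 (SD, n = 6 each), which gave a log2 difference of -0.97 (SE 0.18, 95% interval -1.36 to -0.59, limma adjusted p = 0.00493). Its other probe set gave 9.38 ± 0.14 in posterior and 10.43 ± 0.45 in anterior palate (SD, n = 6 each), a difference of -1.06 (limma adjusted p = 0.00821 in the fit over all probe sets), again with no overlap. These 2 were the only calls among the 18 probe sets, where 1.86% of all probe sets were called. Within the sets of control arrays the difference was -0.66 on arrays 1 to 3 and -1.29 on arrays 4 to 6, with no overlap in either, although neither set alone gave a call (limma adjusted p = 0.555 and 0.0933). Sfrp1 and Sfrp4 had no overlap in either set as well, and Sfrp2, Frzb, Sfrp5 and Wif1 had none on arrays 1 to 3 only. The share of all genes without overlap within a set was not computed. With the 4 sets as a random block, where 7.27% of all genes were called, Sostdc1 was called (limma adjusted p = 0.00169), and with replicate numbers as a block as well (limma adjusted p = 0.00308). Leaving out any one of the 18 arrays kept the call, with adjusted p from 0.000315 to 0.0155.

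**Figure D1:**
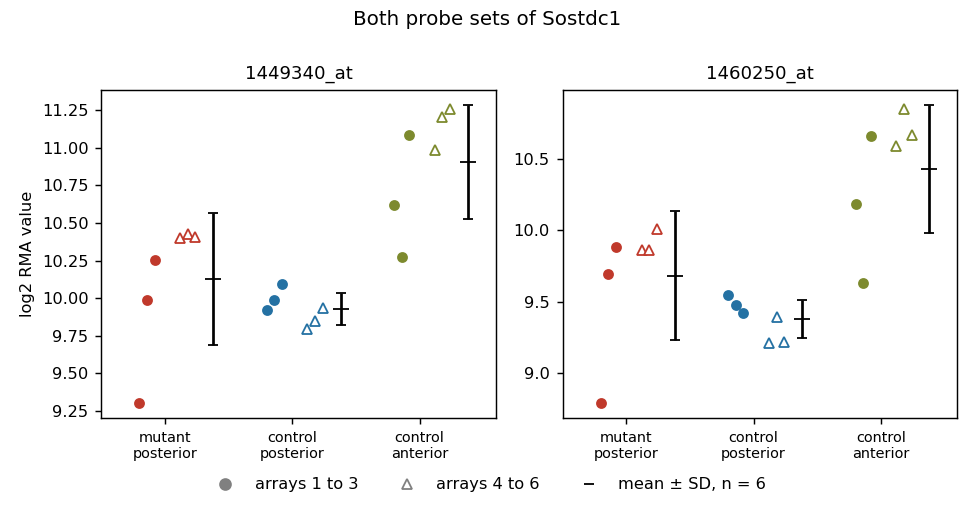
Log2 RMA values (vertical axis, scaled per panel and not from 0) of both Sostdc1 probe sets in the 3 groups, with filled circles for arrays 1 to 3, open triangles for arrays 4 to 6 and black bars for the mean ± SD (n = 6). On both probe sets all 6 control posterior arrays lie below all 6 control anterior arrays, and mutant array 1 is the lowest of all 18 arrays.

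Sostdc1 is known for its role in tooth and ruga patterning, so markers of tooth and ruga epithelium are set beside it. Whether the cells with these markers are those that express Sostdc1 was not examined. Of 6 markers of tooth and ruga epithelium 4 were measured, namely Shh, Edar, Sp6 and Fgf20, and none was called for region. Their mean ran from 6.50 to 6.72 in posterior and from 6.50 to 7.17 in anterior palate, so these ranges overlapped where those of Sostdc1 did not. The mean of the basal and simple epithelial markers ran from 11.55 to 12.01 in posterior and from 11.70 to 12.40 in anterior palate, and none of the 10 was called.

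Among the SFRP genes, Sfrp4 read from 6.29 to 6.83 in control posterior palate (median 6.47) and from 6.82 to 7.89 in control anterior palate (median 7.37). The groups touched at a single pair of arrays. The log2 difference was -0.84 (SE 0.34, 95% interval -1.56 to -0.12) and was not called (limma adjusted p = 0.181). It was called with the replicate number as a block (limma adjusted p = 0.00291), with posterior below anterior in 6 of 6 numbers, with the 12 control arrays alone (limma adjusted p = 0.00743) and with array weights (limma adjusted p = 0.00680). The fit of the 12 control arrays called 11.8% of all genes and that with array weights 18.4%. Without mutant array 1, whose Sfrp4 value of 9.07 widens the shared spread, it was called too (limma adjusted p = 0.0148), in a fit that called 6.67% of all genes. Within the sets the groups did not overlap on arrays 1 to 3 (-1.08) or on arrays 4 to 6 (-0.60), which also held for Sfrp1 (-0.67 and -0.30). The share of all genes that do so was not computed.

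Frzb, also known as Sfrp3, read from 8.61 to 9.06 in control posterior palate (median 8.92) and from 8.69 to 10.17 in control anterior palate (median 9.51). A total of 5 anterior arrays lay above the posterior range. The difference of -0.65 (SE 0.28, limma adjusted p = 0.200) was called only in some fits: with replicate numbers as a block it had adjusted p = 0.0291 (limma), and with array weights adjusted p = 0.0329 (limma). Its second probe set differed by -0.65 as well (limma adjusted p = 0.374 in the fit over all probe sets). Sfrp1 read from 9.56 to 10.20 in control posterior palate (median 9.80) and from 9.81 to 11.06 in control anterior palate (median 10.26). Its difference of -0.49 (SE 0.23, limma adjusted p = 0.242) was called with replicate numbers as a block (limma adjusted p = 0.0172), and all 5 of its probe sets had a negative difference, from -0.58 to -0.29, none of them called.

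Sfrp2 and Wif1 differed least relative to their standard errors. Sfrp2 averaged 12.91 ± 0.16 in control posterior and 13.04 ± 0.31 in control anterior palate (SD, n = 6 each), a difference of -0.13 with a 95% interval from -0.51 to 0.26 (limma adjusted p = 0.754). Wif1 averaged 8.75 ± 0.19 in control posterior and 8.99 ± 0.47 in control anterior palate (SD, n = 6 each), a difference of -0.24 whose 95% interval ran from -1.25 to 0.76 (limma adjusted p = 0.826). Sfrp5 was the only SFRP gene with a higher mean in posterior palate, at 6.24 ± 0.10 against 5.99 ± 0.17 in anterior palate (SD, n = 6 each), a difference of 0.25 (limma adjusted p = 0.257) that was called with array weights (0.27, limma adjusted p = 0.0323). Its second probe set differed by 0.17 without a call. Both Sfrp5 means lie close to the array medians, so background may enter.

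The Shisa genes had higher means in posterior palate. Shisa2 read from 7.95 to 8.88 in control posterior palate (median 8.34) and from 7.36 to 8.48 in control anterior palate (median 7.89). The ranges overlapped, and the difference of 0.47 (SE 0.27, limma adjusted p = 0.342) was called with replicate numbers as a block (limma adjusted p = 0.0208), with posterior above anterior in 5 of 6 numbers. Its other probe set differed by 0.57 (limma adjusted p = 0.292 in the fit over all probe sets). Shisa3 averaged 6.62 ± 0.35 in control posterior and 6.38 ± 0.18 in control anterior palate (SD, n = 6 each), a difference of 0.24 that was not called (limma adjusted p = 0.713), and its second probe set differed by 0.71 (limma adjusted p = 0.475 in the fit over all probe sets). The pairing of equal numbers rests on correlated deviations of the arrays and not on the labels. The strongest correlation fell on the equal number for only 3 of 6, and otherwise within the same set. The blocked calls therefore depend on an assumed pairing that was not tested apart from the sets.

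**Figure D2:**
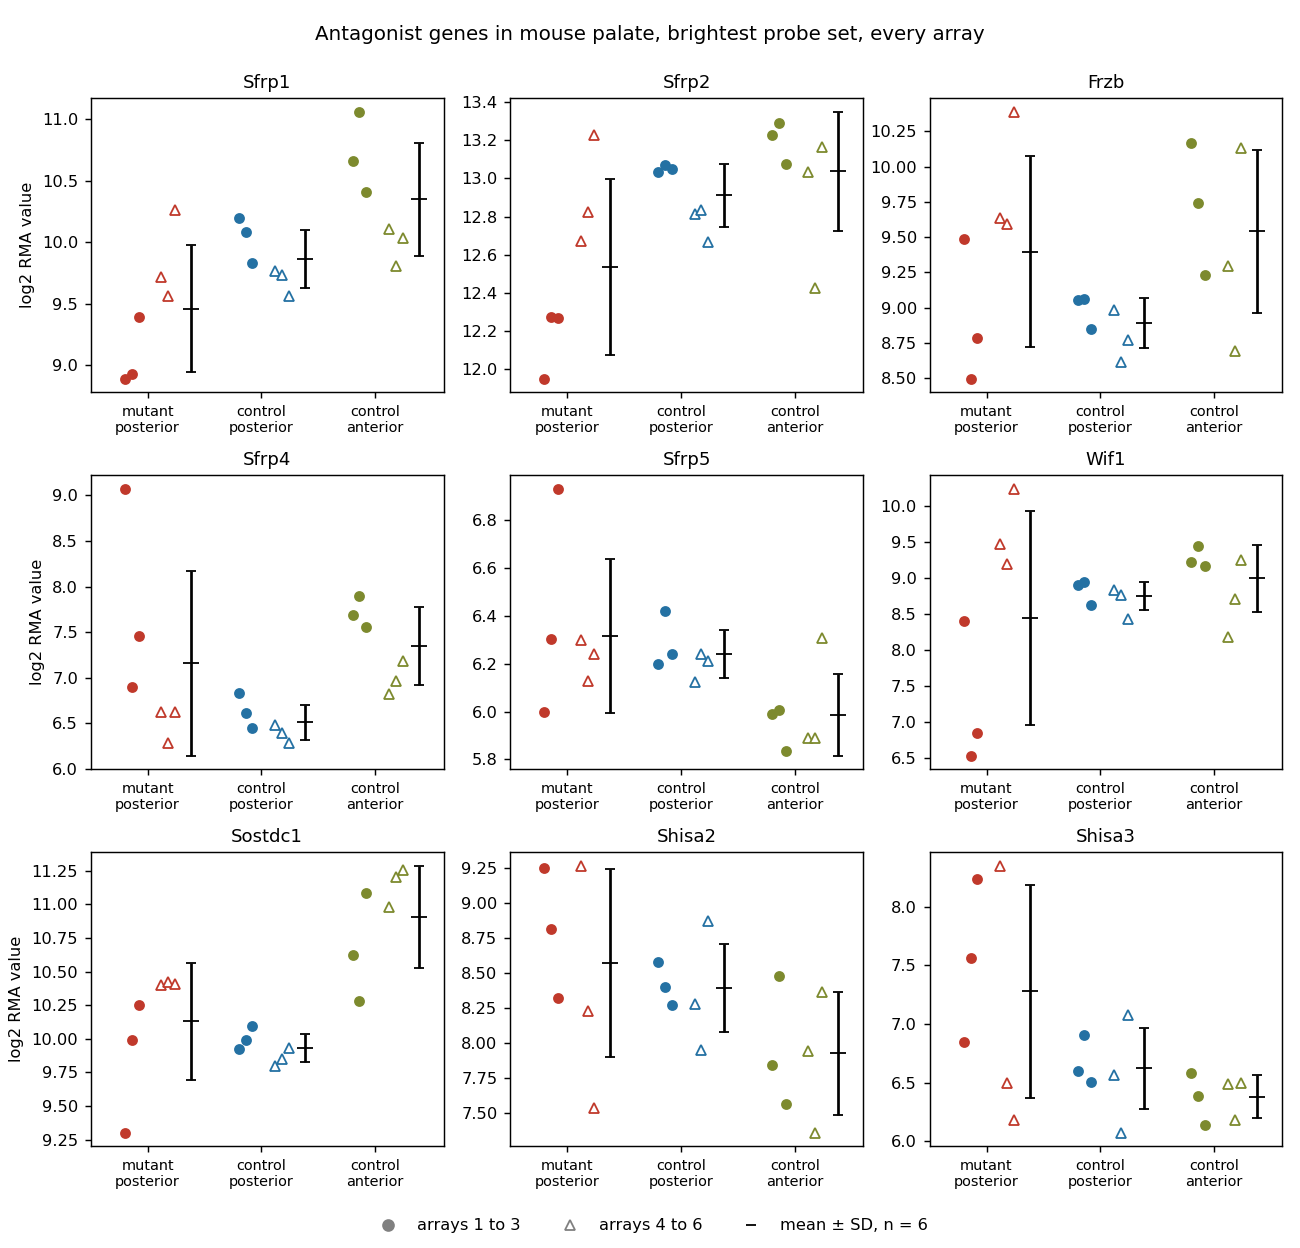
Log2 RMA values (vertical axis, scaled per gene and not from 0) of the brightest probe set of each of the 9 genes in mutant posterior, control posterior and control anterior palate, with filled circles for arrays 1 to 3, open triangles for arrays 4 to 6 and black bars for the mean ± SD (n = 6). Sostdc1 separates posterior from anterior controls, while the mutant values of every gene spread more widely than the control posterior values, most for Wif1 (SD 1.48 against 0.19).

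Around these antagonists the WNT and BMP pathways gave few regional calls. Of 19 WNT ligands none was called, and of 12 other secreted or membrane WNT inhibitors none. Among 19 WNT receptors 2 were lower in posterior palate, Fzd5 (log2 -0.62, limma adjusted p = 0.0413) and the WNT5A receptor Ror1 (-0.61, limma adjusted p = 0.0310). None of 9 beta-catenin targets was called. Of 6 BMP ligands 1 was lower, Bmp6 (-0.96, SE 0.12, limma adjusted p = 8.24e-05), and of 12 BMP antagonists 1 was higher, Grem1 (1.12, limma adjusted p = 0.0131). Among 5 FGF receptors Fgfr4, which is known from muscle progenitors, was higher in posterior palate (1.16, limma adjusted p = 0.00978). None of 5 other Shisa genes was called. The median difference over the 9 antagonists was -0.24, beside -0.02 over all genes.

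The genotype comparison set K14-Cre;Tgfbr2 fl/fl against Tgfbr2 fl/fl posterior palate. None of the 9 genes was called by limma, where 13.5% of all genes were, and none had groups without overlap, where 6.55% of all genes did. Shisa3 and Sfrp4 had the largest mean differences, both higher in mutants, and Sfrp1 and Sfrp2 the largest negative ones. A single Sfrp1 probe set that is not the brightest was higher in mutants. The mutant arrays differed widely among themselves, and all 9 genes had their highest SD in the mutants. The share of all genes with their highest SD there was not computed. The median SD over the 9 genes was 0.67 in mutant posterior, 0.19 in control posterior and 0.43 in control anterior palate. Over all genes the median SD was 0.23 in mutant posterior, 0.13 in control posterior and 0.15 in control anterior palate. At an unadjusted p under 0.05 there was 1 gene of the 9, Shisa3, where 28.0% of all genes lay under it. Without mutant array 6 there were 2 calls, Sfrp2 (log2 difference -0.51, limma adjusted p = 0.0406) and Shisa3, in a fit that called 2735 of the 18193 genes. This comparison shares the 6 control posterior arrays with the region comparison.

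Markers of several other tissues differed between mutant and control posterior palate. The 12 markers of stratified epithelium had 8 genes higher in mutants, and their mean ran from 8.30 to 10.09 in mutant and from 7.31 to 8.02 in control posterior palate, without overlap. Tendon had 4 higher of 7, cartilage 3 of 10, bone 2 of 6, glia 1 of 4 and skeletal muscle 1 of 12, while leukocytes had 1 higher and 1 lower of 7 and red cells 2 lower of 5. None of the 10 markers of palate mesenchyme, the 10 of basal and simple epithelium or the 6 of endothelium was called, and of the 4 measured for tooth and ruga epithelium Sp6 was higher (0.62, limma adjusted p = 0.0336). The part of these markers in the values of the 9 genes was not tested.

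**Figure D3:**
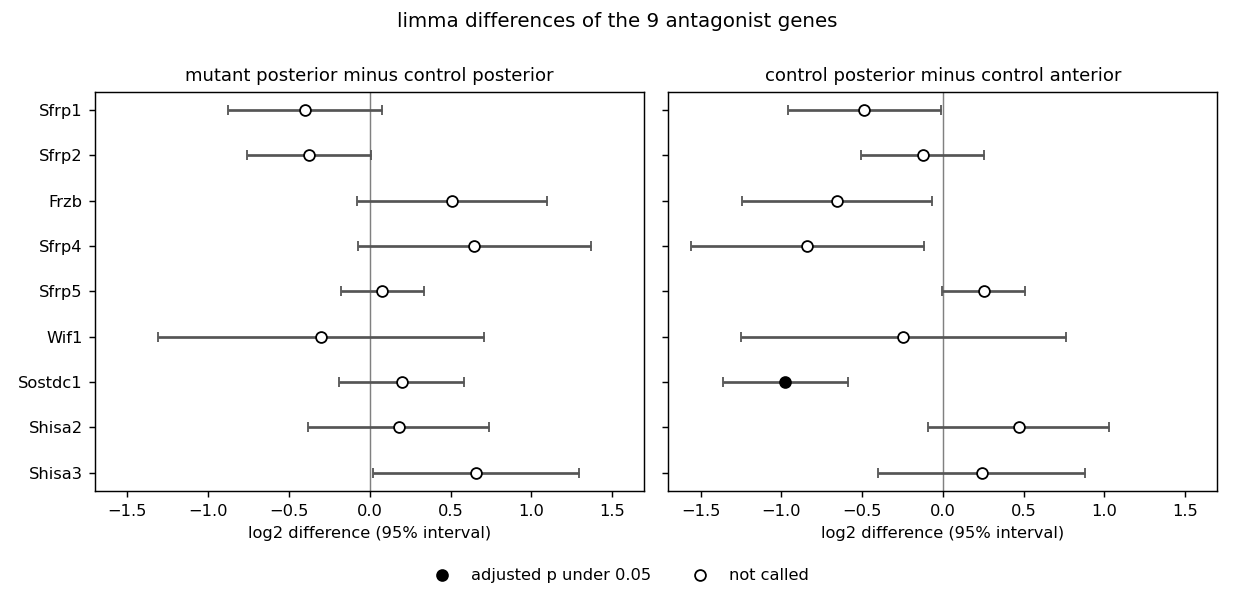
Log2 differences (horizontal axes) of the 9 genes with 95% intervals from limma, for mutant posterior minus control posterior palate on the left and control posterior minus control anterior palate on the right, 6 arrays a group. The filled point is Sostdc1 for region, at -0.97; no gene was called for genotype.

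Shisa3 read from 6.19 to 8.35 in mutant posterior palate (median 7.20) and from 6.07 to 7.07 in control posterior palate (median 6.58). Mutant arrays 2, 3 and 4, at 7.56, 8.23 and 8.35, lay above the control range, while arrays 1, 5 and 6, at 6.85, 6.50 and 6.19, lay within it. The log2 difference was 0.66 (SE 0.30, 95% interval 0.02 to 1.30, limma adjusted p = 0.167), and without mutant array 6 it was 0.88 and called (limma adjusted p = 0.0421). With mutant arrays 1 to 3 only, where 27.4% of all genes were called, it was 0.93 (limma adjusted p = 0.0121). Its second probe set had the same arrays on top, at 6.81, 8.32 and 8.03 on mutant arrays 2, 3 and 4, with a difference of 0.40 (limma adjusted p = 0.627 in the fit over all probe sets). The mean of 4 measured Schwann cell and glial markers ran from 7.92 to 9.86 in mutant and from 8.22 to 8.49 in control posterior palate, with mutant array 3 highest and mutant array 6 lowest. Its part in the Shisa3 values was not tested.

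Shisa2 gave no stable direction. It averaged 8.57 ± 0.67 in mutant and 8.39 ± 0.31 in control posterior palate (SD, n = 6 each), a difference of 0.18 (95% interval -0.38 to 0.74, limma adjusted p = 0.707), while its other probe set differed by -0.36 (limma adjusted p = 0.420 in the fit over all probe sets). Of the 5 other Shisa genes 2 were higher in mutants, Shisa5 (0.44, SE 0.07, limma adjusted p = 0.000546) and Shisa4 (0.47, SE 0.11, limma adjusted p = 0.0106).

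Wif1 had the widest range. It read 8.40, 6.53 and 6.85 on mutant arrays 1 to 3 and 9.47, 9.19 and 10.23 on mutant arrays 4 to 6, against 8.43 to 8.95 in control posterior palate (median 8.80). No mutant value lay within the control range: 3 were below it and 3 above. The mean difference of -0.30 (SE 0.48, 95% interval -1.31 to 0.71, limma adjusted p = 0.726) was not called. With mutant arrays 1 to 3 only the difference was -1.49 (limma adjusted p = 0.00459), in a fit that called 27.4% of all genes, and with mutant arrays 4 to 6 only it was 0.88 (limma adjusted p = 0.0248), in a fit that called 18.2%. Without mutant array 2 or 3 the mean difference became 0.080 or 0.017, neither called.

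Sfrp2, Sfrp1 and Frzb also read lower on mutant arrays 1 to 3 than on mutant arrays 4 to 6. Sfrp2 stood at 11.95, 12.27 and 12.27 on mutant arrays 1 to 3 and at 12.67, 12.83 and 13.23 on mutant arrays 4 to 6, against 12.66 to 13.07 in control posterior palate. The first set lay below every control array, and the second overlapped the controls. Over all 6 mutant arrays the difference was -0.38 (SE 0.18, 95% interval -0.76 to 0.01, limma adjusted p = 0.187). It was -0.75 with mutant arrays 1 to 3 only (limma adjusted p = 0.00332) and -0.0035 with mutant arrays 4 to 6 only. Frzb read 9.49, 8.49 and 8.78 on mutant arrays 1 to 3 and 9.64, 9.59 and 10.39 on mutant arrays 4 to 6, against 8.61 to 9.06 in control posterior palate, so that 4 mutant arrays exceeded the control range. Its difference was 0.51 (SE 0.28, limma adjusted p = 0.248), and 0.99 with mutant arrays 4 to 6 only (limma adjusted p = 0.0222). Its second probe set differed by 0.76 (limma adjusted p = 0.175 in the fit over all probe sets). For Frzb and Wif1, mutant array 1 read above arrays 2 and 3 and below arrays 4 to 6. In controls, posterior arrays 4 to 6 averaged 0.28 lower than arrays 1 to 3 for Sfrp2 and 0.15 lower for Wif1, where the mutants differed by 0.74 and 2.37 the other way.

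**Figure D4:**
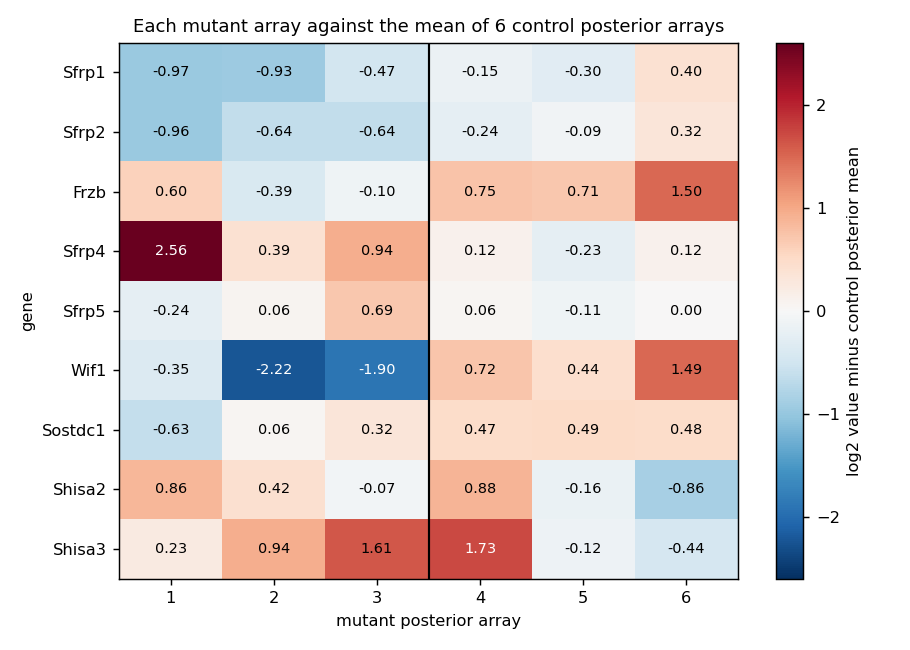
Log2 value of each gene (rows) on each mutant posterior array (columns) minus the mean of the 6 control posterior arrays, with the vertical line between arrays 1 to 3 and 4 to 6. Red is above the control mean and blue below it: Wif1 is at -2.22 and -1.90 on arrays 2 and 3 and at 1.49 on array 6, and Sfrp4 on array 1 is the highest value at 2.56.

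For Sfrp2, Frzb and Wif1, every value on mutant arrays 1 to 3 lay below every value on mutant arrays 4 to 6. They did not move alike on array 1, where Sfrp2 lay below the control range (-0.96 from the control mean) and Frzb above it (0.60). The share of all genes whose mutant sets lay apart was not computed, so the separation is not a trait shown to be particular to these genes. For Sfrp2, Frzb and Wif1 the 250 bases before 1 annotated start of each are shown. They were taken from RefSeq on GRCm38.p6 and are read 5′ to 3′ along each gene. Of the 9 genes 6 have a promoter in that table. Sfrp1 and Sostdc1, whose mutant sets were also apart in that direction, have none there. Capitals mark a match, on either strand, to CTTTGA (reverse TCAAAG), the core letters of TCF/LEF sites, or to CAGAC (reverse GTCTG), letters found in SMAD boxes; the motifs do not overlap here. The windows are chr3:83766071-83766320 on the plus strand for Sfrp2, chr2:80447397-80447646 on the minus strand for Frzb and chr10:121033754-121034003 on the plus strand for Wif1. Those of Frzb and Wif1 border the annotated gene spans. The annotated span of Sfrp2 begins earlier, at 83765750, so its window lies inside that span and not before the whole gene.
Sfrp2: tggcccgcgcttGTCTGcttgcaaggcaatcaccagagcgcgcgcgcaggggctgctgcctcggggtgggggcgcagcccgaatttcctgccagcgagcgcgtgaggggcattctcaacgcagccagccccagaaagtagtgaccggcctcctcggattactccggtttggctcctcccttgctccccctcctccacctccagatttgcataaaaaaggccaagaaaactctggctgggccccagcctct
Frzb: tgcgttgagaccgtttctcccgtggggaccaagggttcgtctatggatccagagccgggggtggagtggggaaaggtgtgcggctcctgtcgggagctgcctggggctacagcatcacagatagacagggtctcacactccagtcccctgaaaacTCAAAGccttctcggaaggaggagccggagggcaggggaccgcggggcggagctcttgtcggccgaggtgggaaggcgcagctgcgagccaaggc
Wif1: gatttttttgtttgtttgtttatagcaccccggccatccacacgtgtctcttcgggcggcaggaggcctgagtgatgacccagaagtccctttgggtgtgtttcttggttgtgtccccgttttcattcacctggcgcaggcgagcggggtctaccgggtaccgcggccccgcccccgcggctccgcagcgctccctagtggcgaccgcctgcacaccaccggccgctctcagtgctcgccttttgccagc
The window of Frzb held TCAAAG starting 95 bases before the start used. That of Sfrp2 held GTCTG starting 238 bases before the start used, and that of Wif1 held neither set of letters. Among all 32851 promoters given there, 13.8% held the first motif and 42.2% the second within the same length, so both matches are common, and they describe letters only.

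Sfrp1 was measured by 5 probe sets that did not move alike. The brightest read 8.89, 8.93 and 9.39 on mutant arrays 1 to 3 and 9.71, 9.57 and 10.26 on mutant arrays 4 to 6, against 9.56 to 10.20 in control posterior palate, a difference of -0.40 (SE 0.23, limma adjusted p = 0.260), and of -0.79 with mutant arrays 1 to 3 only (limma adjusted p = 0.0194). Probe set 1460187_at read lower still on the first set, at 6.51, 7.08 and 7.89 on mutant arrays 1 to 3 and 8.94, 8.79 and 9.56 on mutant arrays 4 to 6, against 8.78 to 9.36 in control posterior palate. Its difference was -0.92 (limma adjusted p = 0.162 in the fit over all probe sets). Probe set 1448395_at went the other way: it read from 8.77 to 9.63 in mutant posterior palate (median 9.21) and from 8.43 to 8.75 in control posterior palate (median 8.46). The 2 groups did not overlap but nearly touched, at 8.77 and 8.75. Of all genes 6.55% had no overlap on their brightest probe set, and the share over all probe sets was not computed. The difference of 0.70 was called (limma adjusted p = 0.0159 in the fit over all probe sets). It was the 1 call among the 18 probe sets, where 10.7% of all probe sets were called. The 2 remaining probe sets differed by 0.31 and 0.20 without a call. Which transcripts each probe set reads was not examined.

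**Figure D5:**
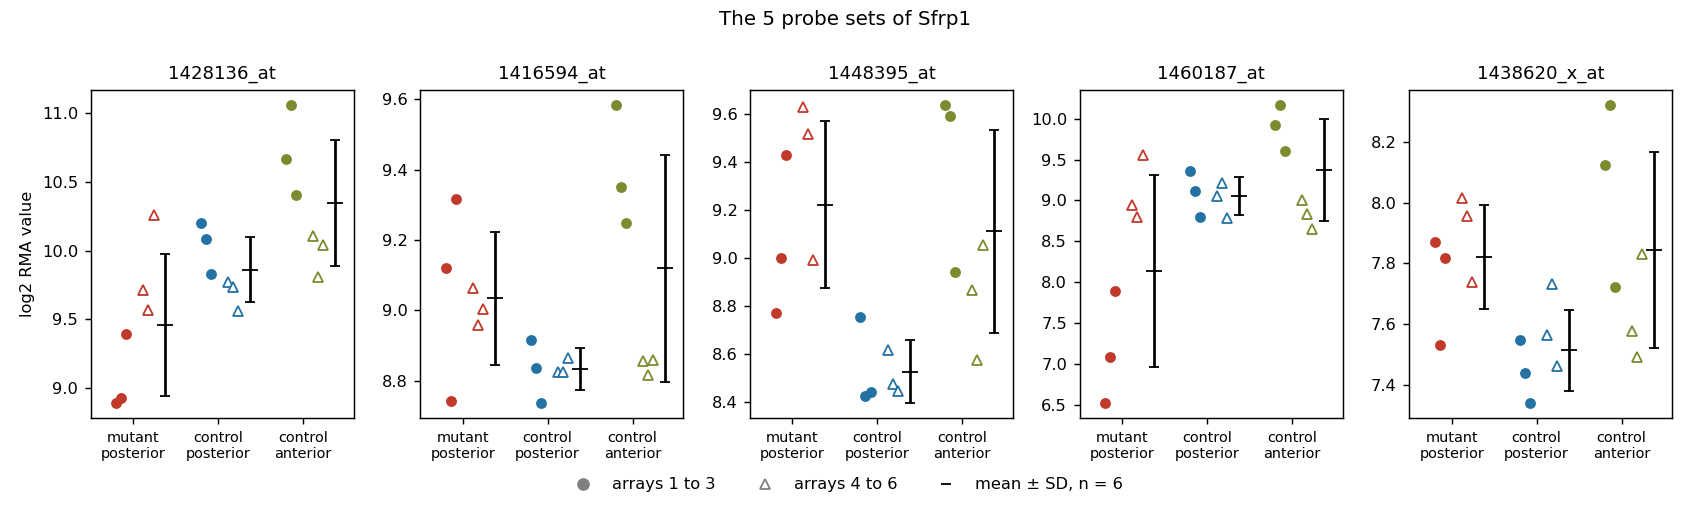
Log2 RMA values (vertical axis, scaled per panel and not from 0) of the 5 Sfrp1 probe sets, brightest on the left, in mutant posterior, control posterior and control anterior palate; filled circles are arrays 1 to 3, open triangles arrays 4 to 6 and black bars the mean ± SD (n = 6). Mutant arrays 1 to 3 are low on 1428136_at and 1460187_at, while on 1448395_at all mutant arrays lie above all control posterior arrays.

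Sfrp4 was highest on mutant array 1. It read 9.07 on mutant array 1, 6.90 and 7.46 on arrays 2 and 3, and 6.63, 6.28 and 6.63 on arrays 4 to 6, against 6.29 to 6.83 in control posterior palate. Every array of the first set lay above the control range, and of the second set array 5 lay just below it and the others within it. With mutant arrays 1 to 3 only the difference was 1.30 (limma adjusted p = 0.0141). The difference of 0.65 (SE 0.34, 95% interval -0.07 to 1.37) was not called (limma adjusted p = 0.230). Mutant array 1 also had the highest mean over 12 skeletal muscle markers, at 12.03 against 9.43 to 10.64 in control posterior palate. Among the mutant arrays it was highest for red cells (9.43) and leukocytes (8.93) too. It was lowest for basal and simple epithelium (9.52) and for tooth and ruga epithelium (6.04). The part of these tissues in the Sfrp4 values was not tested. Sfrp5 averaged 6.32 ± 0.32 in mutant and 6.24 ± 0.10 in control posterior palate (SD, n = 6 each), a difference of 0.08 (95% interval -0.18 to 0.33, limma adjusted p = 0.724). Its dimmer probe set read 5.66, 6.74 and 7.23 on mutant arrays 1 to 3 and 6.21, 5.18 and 5.18 on arrays 4 to 6, against 5.33 to 5.69 in control posterior palate, a difference of 0.58 (limma adjusted p = 0.188 in the fit over all probe sets). Mutant arrays 2, 3 and 4 lay above the control range there.

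Sostdc1 averaged 10.13 ± 0.44 in mutant and 9.93 ± 0.11 in control posterior palate (SD, n = 6 each), a difference of 0.20 (95% interval -0.19 to 0.59, limma adjusted p = 0.520). It read 9.30 on mutant array 1 and from 9.99 to 10.42 on the other mutant arrays, of which arrays 3 to 6 lay above every control posterior array. Its second probe set differed by 0.31 (limma adjusted p = 0.365 in the fit over all probe sets). With array weights, which weigh down arrays far from their group, the difference was 0.42 and called (limma adjusted p = 0.0447), in a fit that called 18.3% of all genes. Among the 3 groups the order of mean Sostdc1 levels was control anterior, mutant posterior, control posterior, and the mutant range overlapped those of both control groups.

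On the brightest probe sets, the order of the groups was shared by several genes. Sfrp4 and Frzb also had their highest mean in control anterior palate, with 7.35 and 9.54, followed by mutant posterior palate with 7.16 and 9.40 and control posterior palate with 6.51 and 8.89, and the mutant range overlapped both control ranges for each. Sfrp1, Sfrp2 and Wif1 ran from control anterior through control posterior to mutant posterior palate, and Sfrp5, Shisa2 and Shisa3 from mutant posterior through control posterior to control anterior palate. Some other probe sets gave other orders. Sfrp1 probe sets 1448395_at, 1416594_at and 1438620_x_at averaged higher in mutant (9.22, 9.03 and 7.82) than in control posterior palate (8.53, 8.83 and 7.51). The second Frzb probe set was highest in mutant posterior palate (7.41), and the second Shisa2 probe set in control posterior palate (8.37). On the brightest probe sets, no pair of neighbouring groups in these orders separated without overlap for any of the 9 genes. The separation of Sostdc1 was between the groups at opposite ends of its order. On the Sfrp1 probe set 1448395_at, mutant and control posterior palate did not overlap, as given above.

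Beside the antagonists, the other secreted or membrane WNT inhibitors had 3 of 12 genes higher in mutants and none lower, led by the Dickkopf genes Dkk4 (log2 difference 2.49, limma adjusted p = 0.00798) and Dkk1 (1.27, limma adjusted p = 0.0346). None of 19 WNT ligands was called. Of 19 WNT receptors 3 were higher in mutants, with Fzd5 at 0.74 (limma adjusted p = 0.00696) and Fzd9 at 0.57 (limma adjusted p = 0.0408). Among 9 beta-catenin targets 1 was higher, Nkd1 (0.59, limma adjusted p = 0.00936), a feedback inhibitor. Bmp6 was higher (0.37, limma adjusted p = 0.0440) among 6 BMP ligands, and the BMP antagonist Chrd (0.46, limma adjusted p = 0.0168) among 12. Fgfr4 was higher (0.93, limma adjusted p = 0.0162) among 5 FGF receptors. The median difference over the 9 antagonists was 0.18, beside 0.31 over the 12 other inhibitors and 0.04 over all genes.

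Genes with the most similar values over the 18 arrays were sought for each antagonist among 16307 named genes, with Pearson's r as the measure of likeness. These arrays share the sets described above, so r is given as a description. Wif1 was most like Acap2 (r = 0.960) and the Hippo pathway kinase Lats2 (0.949), Sfrp2 like Dzip1 (0.940) and the mesenchymal homeobox gene Prrx2 (0.935), and Sfrp4 like the homeobox gene Dlx6 (0.939) and Kifc3 (0.923). Sfrp1 was most like Tmem200c (0.938) and Tubgcp2 (0.922), Frzb like Pitrm1 (0.887) and Epdr1 (0.877), and Sfrp5 like Tcerg1l (0.881) and Cnrip1 (0.853). For Sostdc1 these were Fam160a2 (0.911) and Vit (0.864), whose log2 differences between posterior and anterior controls were -0.15 and -1.17. Shisa2 was most like Dner (0.859) and the tendon transcription factor Scx (0.843), and Shisa3 like Cdh19 (0.906), a cadherin of Schwann cell precursors, and Ptpro (0.892). With each group's mean removed, r lay between 0.714 for Vit and 0.977 for Acap2. This is no separate check, because the genes were picked by r on the same arrays and the sets within the groups remain.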

How the data were processed

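RNA from 18 mouse palate samples was measured on Affymetrix 1-colour arrays. The authors deposited log2 values made with RMA (version not given), per the submitters' processing notes; whether samples were pooled is not given in the sources used here. RMA gives all arrays nearly the same distribution, which can hide a shift of most genes, and the number of arrays limits the precision. Of 45101 probe sets, 34958 had 1 symbol in the platform annotation, 932 had several and 9211 were unlisted; 64 control probe sets were not tested. Groups and replicate numbers came from the titles.

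Group differences come from limma 3.58.1, run in R 4.3.3 (lmFit and eBayes, 2-sided, 15 residual degrees of freedom, no covariate) on the brightest probe set of 18193 genes, with Benjamini-Hochberg adjustment. On simulated data the fit gave mean estimates close to the added changes. The simulation used independent arrays with the same spread in all groups and no sets of arrays. It therefore does not show how far the calls hold for these data, where the mutants spread more widely. The 9 genes and all lists were chosen with earlier results of these data known. Named genes are the 9 genes with all their probe sets, the 2 most similar genes of each, Tgfbr2, and up to 2 called genes with the largest change from each list and comparison. Lists cover WNT, BMP, FGF and Shisa genes and markers of palate mesenchyme, epithelia, muscle, cartilage, bone, tendon, endothelium, red cells, leukocytes and glia. Deviations from the group means correlated at 0.111 to 0.430 between same-numbered posterior and anterior control arrays in 6 of 6 pairs. The strongest correlation fell on the equal number for only 3 of 6, and otherwise on another number of the same set. The numbers were taken to pair these arrays in the blocked fit. Whether they pair them beyond the shared sets was not tested. Between mutant and control posterior arrays 2 of 6 pairs exceeded 0.1, and those numbers were not taken to pair them. Figures were drawn with matplotlib 3.10.9.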

Additional observations from a re-analysis of the deposited data

Results flagged for a closer look

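In 54 groups of 6 arrays (18 probe sets in 3 groups), 5 values on 4 arrays stood apart from the rest of their group by Dixon's test, where chance flags about 1 group in 20. Sfrp5 read 6.93 on mutant array 3 on its brightest probe set, against 6.00 to 6.30 on the other mutant arrays. Control anterior array 6 was high on both Sfrp5 probe sets, at 6.31 on the brighter (5.83 to 6.01 on the others) and 5.75 on the dimmer (5.06 to 5.30 on the others). Sfrp2 read 12.43 on control anterior array 5, against 13.03 to 13.29 on the other anterior arrays. The second Sostdc1 probe set read 8.79 on mutant array 1, against 9.70 to 10.01 on the other mutant arrays, and on that array the mean of the basal and simple epithelial markers was 9.52.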

How the results depend on the processing

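No call of Sostdc1 for region was lost under other probe set choices, scalings, variance models or thresholds, or without any single array (log2 difference -1.10 to -0.90 without 1 array), but it was lost with control arrays 1 to 3 only (-0.66) or 4 to 6 only (-1.29), where 82 and 16 genes were called in all and none of the 9. For region, 5 of the 9 genes and 3156 genes in all were called with the replicate block, 2 and 2151 with the 12 compared arrays, 4 and 3356 with array weights, and 1 and 1322 with 4 sets as a random block; 251 genes were called at the stricter threshold of 0.01. For genotype, the counts of the 9 genes and of all genes were 5 and 4986 with mutant arrays 1 to 3 only, 2 and 3318 with 4 to 6 only, 1 and 3332 with array weights, 0 and 1572 with the 12 compared arrays, 0 and 890 with the replicate block, 0 and 588 with 4 sets as a random block, 0 and 135 with control arrays 1 to 3 only, 0 and 1008 with 4 to 6 only and 0 and 905 at the stricter threshold; 4835 probe sets were called when each was tested alone. Leaving out 1 array gave 0 to 2 of the 9 genes and 1512 to 2735 of all genes for genotype, and 1 to 2 and 389 to 1213 for region; for genotype the count of all genes moved by over 1.5 times without control posterior array 4 (1592) or 5 (1512), and for region without control posterior array 2 (450), 4 (437) or 6 (389), control anterior array 1 (442) or 3 (458) or mutant array 1 (1213). Genotype differences changed sign for Shisa2 with the mean of its probe sets (-0.090) and with mutant arrays 4 to 6 only (-0.049), for Wif1 with array weights (0.29), with mutant arrays 4 to 6 only (0.88) and without mutant array 2 (0.080) or 3 (0.017; range without 1 array -0.66 to 0.080), for Sostdc1 with mutant arrays 1 to 3 only (-0.083), for Sfrp4 with 4 to 6 only (-1.8e-05) and for Sfrp5 with 4 to 6 only (-0.016) and without mutant array 3 (range without 1 array -0.045 to 0.14); the cause was not tested. Of the called genes, 57.5% were higher for genotype as deposited, 38.6% after median centring and 45.8% after quantile normalization; for region 44.5%, 36.7% and 57.9% were. The replicate block changed no other call of the 9 genes than those given for region. Dim genes (Sfrp4, Sfrp5 and Shisa3 lie nearest the array medians) are limited by background.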
